A study of Mus musculus with 10 samples.

Results

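Surface proteins by which liver progenitor and duct cells are commonly sorted were followed at the RNA level in mouse liver organoids. The genes are Epcam, Thy1, Prom1, Cd24a, Cd44, Itga6, Ncam1, Kit and Cd34, given as a list of symbols, and all 9 were found among the 49585 genes of the deposited tables. The study sequenced bulk RNA from 10 samples in 5 groups of 2, from a mouse model of liver cancer named for a triple knockout of the Rb gene family. Livers or lesions were digested, and cells positive for YFP, a reporter of Cre recombination of floxed alleles, were sorted by flow cytometry. The sorted fractions are Epcam-, Epcamhigh and Thy1+, and the cultures are Ck19-derived and Sox9-derived organoids. The labels give no age, strain or treatment agent, and state no genotype, Cre driver or clone number for a single sample. Whether the 2 samples of each group are from different animals or cultures is not stated, so every p-value below rests on a spread that could be technical.

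Count columns could be tied by name to the 2 Ck19-derived and the 2 Sox9-derived organoid samples. Another pair of columns carries the name Sox9 with an added TKO tag that no sample label has. It is called the TKO-tagged pair here, and its values are given beside the organoids only as an alternative reading of the Sox9 label. It was deposited in a separate table, so any difference from the other libraries cannot be told apart from a difference between tables. The 3 sorted fractions were not analysed here, so the sort on Epcam and Thy1 itself is not described.

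Fragments assigned to genes ranged from 31883180 to 36606008 in the 4 organoid libraries and were 53280136 and 59664959 in the TKO-tagged pair. One fragment was thus worth 0.0273 to 0.0314 CPM (counts scaled to the library total) in the organoids. Organoid identity was read from biliary and hepatocyte markers. The symbols of all 10 biliary epithelial markers were matched. They summed to 11820 and 11661 CPM in Ck19-derived libraries and to 28533 and 23195 CPM in Sox9-derived libraries. In the TKO-tagged pair they summed to 578 and 1194 CPM. Spp1 (osteopontin) alone made up 7434 and 7744 CPM of the Ck19-derived and 22830 and 18279 CPM of the Sox9-derived sums. Its part in the TKO-tagged pair was 394 and 1018 CPM. In each Sox9-derived library 1 of the markers had 0 fragments, and in the TKO-tagged columns 1 and 4 had 0. The 9 hepatocyte markers matched summed to between 259 and 627 CPM in the organoids, against 55388 and 45365 CPM in the TKO-tagged pair. Most of each organoid sum was Ttr and Hnf4a. Ttr stood at 103 and 149 CPM in Ck19-derived libraries, against 162 and 543 CPM in Sox9-derived libraries. Hnf4a stood at 136 and 129 CPM, against 104 and 82.4 CPM. Krt19, the keratin of bile ducts that gives Ck19 its name, stood at 0.619 and 1.61 CPM in the TKO-tagged pair and at 1945 CPM or more in each organoid library. The TKO-tagged pair thus stands apart from both organoid groups, and its markers go against an organoid label as the untagged pair shows it. Xist, the RNA of the silenced X chromosome, stood at 60.3 and 57.1 CPM in the Ck19-derived libraries and at 1 fragment in each Sox9-derived library. In the TKO-tagged pair Xist had 2 and 1 fragments. Eif2s3y, a gene of the Y chromosome, stood at 70.8 and 62.2 CPM there, against 0.0941 and 0.0916 CPM in the Ck19-derived libraries. The Sox9-derived libraries held Eif2s3y at 92.4 and 78.9 CPM. The Sox9-derived libraries and the TKO-tagged pair therefore also differ from the Ck19-derived libraries in the sex of the cells. Origin and sex cannot be told apart in any difference below, between the organoid groups or against the TKO-tagged pair.

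**Figure D1:**
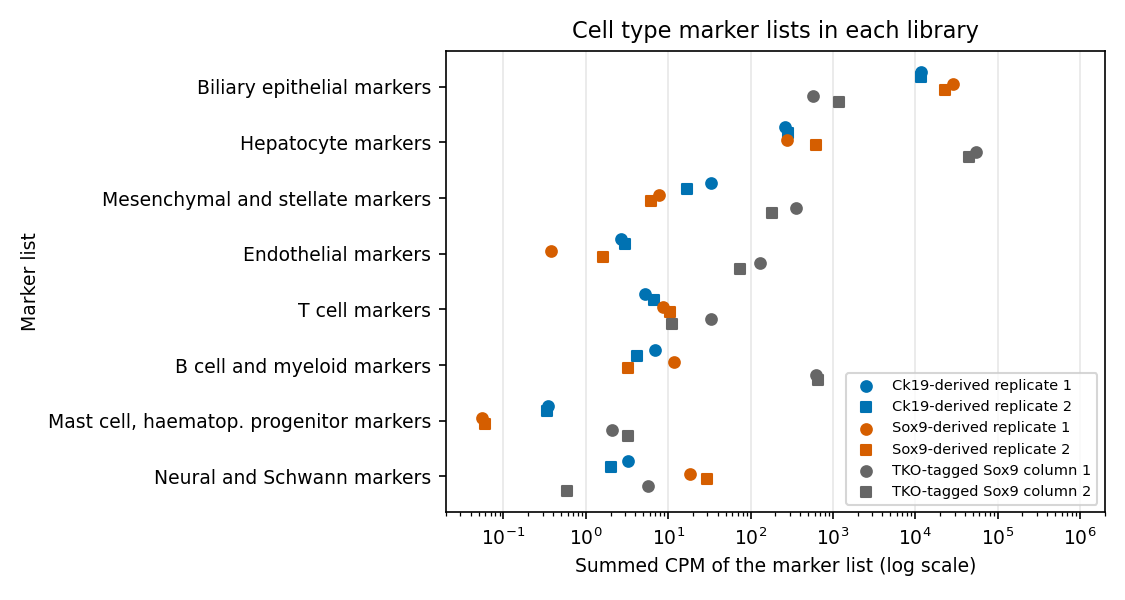
Summed CPM of 8 cell type marker lists (vertical axis) in each of 6 libraries, on a log scale; circles are replicate or column 1 and squares replicate or column 2. The organoid libraries are high in biliary markers, and the TKO-tagged pair is high in hepatocyte markers and above every organoid library in the mesenchymal, endothelial, T cell, B cell and myeloid lists.

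EpCAM is a homophilic adhesion glycoprotein of simple epithelia, which in liver marks bile ducts and progenitor cells and is lost in mature hepatocytes. Prominin 1 (CD133), CD24 and CD44 are often used together with it to enrich duct-like and tumour-initiating cells. Integrin alpha 6 anchors epithelium to laminin, while NCAM1 and Kit have been used to mark reactive ductules and progenitors. Thy1 (CD90) and CD34 are better known from T cells, fibroblasts, endothelium and haematopoietic progenitors, and both have been reported on liver progenitors.

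The promoters of Epcam and Cd34 are shown because Epcam was the highest of the list per length in the organoids and Cd34 among the lowest, while Cd34 was the highest of the 9 in the TKO-tagged pair. RefSeq promoter entries on GRCm38.p6 were matched for 5 of the 9 genes, and the 250 bases before the start are printed 5′ to 3′, on the plus strand for both. Capitals mark the GC box GGGCGG, searched on both strands.
Epcam, chr17:87635729-87635978: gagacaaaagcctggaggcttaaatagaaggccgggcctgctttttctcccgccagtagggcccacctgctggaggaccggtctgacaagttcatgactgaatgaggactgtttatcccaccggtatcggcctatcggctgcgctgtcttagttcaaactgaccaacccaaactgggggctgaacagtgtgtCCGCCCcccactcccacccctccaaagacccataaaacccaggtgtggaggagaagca
Cd34, chr1:194938571-194938820: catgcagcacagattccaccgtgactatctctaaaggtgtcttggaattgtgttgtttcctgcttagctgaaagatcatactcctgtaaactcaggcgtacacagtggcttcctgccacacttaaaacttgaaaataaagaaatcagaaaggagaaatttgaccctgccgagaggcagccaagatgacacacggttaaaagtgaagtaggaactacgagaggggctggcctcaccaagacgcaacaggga
The Epcam window held 1 GC box, on the reverse strand, and the Cd34 window 0, where 32.97% of 32536 promoter windows of this length held at least 1. Neither window held the TATA motif TATAAA on either strand, which 12.3% of windows held. There were 8 CpG in the Epcam window and 6 in the Cd34 window, against a median of 6. These matches describe the letters only.

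Epcam was by far the most abundant of the 9 genes per length in the organoids. Epcam (ENSMUSG00000045394, chromosome 17, 87635979 to 87651106, GRCm38) stood at 2324 and 2101 CPM in Ck19-derived libraries, against 2669 and 3833 CPM in Sox9-derived libraries. Both Sox9-derived libraries lay above both Ck19-derived ones. Scaled to length it reached 1085 ± 77.4 RPKM (fragments scaled to length and library total; SD, n = 2) in the Ck19-derived and 1594 ± 403 RPKM in the Sox9-derived organoids. In each of the 4 libraries it ranked above 99.87% or more of the detected genes by RPKM. In the TKO-tagged pair the gene stood at 8.99 and 5.61 CPM, below every organoid library. The same sample name prefix thus goes with Epcam levels that do not overlap.

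Per length, the order of the genes was nearly the same in both kinds of organoid. Epcam was followed by Cd24a (204 ± 17.8 RPKM in the Ck19-derived and 410 ± 64.9 RPKM in the Sox9-derived organoids), Prom1 (105 ± 0.547 and 97.9 ± 4.13 RPKM) and Cd44 (38.9 ± 2.77 and 69.5 ± 7.17 RPKM). Neighbours among these genes did not overlap between libraries in either group. Itga6 came next at 4.56 ± 0.649 and 4.43 ± 1.505 RPKM, then Ncam1 at 0.778 ± 0.457 and 2.41 ± 2.40 RPKM and Kit at 0.406 ± 0.297 and 0.471 ± 0.306 RPKM. The values of Ncam1 and Kit overlapped in the Ck19-derived libraries, and those of Itga6 and Ncam1 in the Sox9-derived libraries, so these neighbours did not differ beyond their spread. Thy1 and Cd34 were last in both groups and overlapped each other. In the TKO-tagged pair the order was different, with Cd34 first at 4.83 ± 2.91 RPKM, Epcam second at 3.58 ± 1.17 RPKM and Ncam1 last at 0.0101 ± 0.00208 RPKM.

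**Figure D2:**
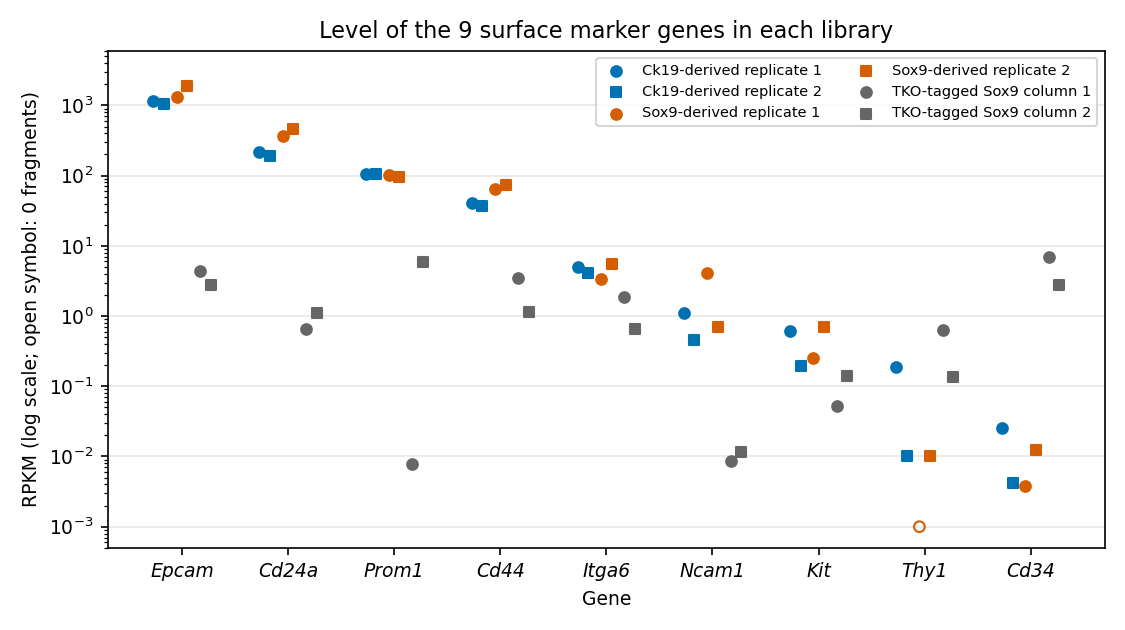
RPKM on a log scale (vertical axis) of the 9 surface marker genes in each library; circles are replicate or column 1, squares replicate or column 2, and the open circle is Thy1 with 0 fragments, drawn at the foot of the axis. The 4 organoid libraries fall together from Epcam to Cd34, and the TKO-tagged pair lies far below them at Epcam and Cd24a and far above them at Cd34.

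The difference between Sox9-derived and Ck19-derived organoids was then tested gene by gene in a fit of all 16653 genes that passed the count filter. Of the 9 surface marker genes 7 passed it and none was called by edgeR at an adjusted p under 0.05, where 0.570% of all tested genes were. An unadjusted p under 0.05 was reached by 2 of the 7 (Cd24a and Cd44). With a filter of 1 count in place of the main one edgeR called Cd24a, where it called 1.52% of all genes. DESeq2 called these 2 genes, where it called 9.26% of the genes it adjusted, and limma-voom called 0, where it called 0.558% of all. The CPM of the groups did not overlap for 4 of the 7 genes, where 51.0% of all tested genes show the same. The median log2 fold change of the 7 was 0.56, against 0.01 over all tested genes, and 5 lay above 0.

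Cd24a (ENSMUSG00000047139, chromosome 10, 43578284 to 43584265), a small heavily glycosylated protein held by a lipid anchor, had the clearest difference of the 7. It stood at 558 and 493 CPM in Ck19-derived libraries, against 941 and 1177 CPM in Sox9-derived libraries, a complete separation of the groups. The log2 fold change was 1.01 (SE 0.19, 95% interval 0.51 to 1.51) with an edgeR adjusted p of 0.113. With a looser filter, at least 1 count summed over the 4 libraries, edgeR called it (1.03, adjusted p = 0.0463). DESeq2 gave an adjusted p of 0.000251 and limma-voom 0.0867. Without Sox9-derived replicate 1 edgeR also called it (1.18, adjusted p = 0.0122), in a fit that called 7.67% of its genes.

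Cd44 (ENSMUSG00000005087, chromosome 2, 102811141 to 102901665), the main receptor for hyaluronan, differed in the same direction. Its levels were 277 and 250 CPM in Ck19-derived libraries, against 437 and 505 CPM in Sox9-derived libraries, and the groups did not overlap. The log2 fold change was 0.84 (SE 0.18, 95% interval 0.38 to 1.29; edgeR adjusted p = 0.125). DESeq2 gave an adjusted p of 0.00139, where it called 9.26% of the genes it adjusted, and limma-voom gave 0.101. The edgeR adjusted p was 0.0881 with the filter of 1 count and 0.208 with the replicate block. Leaving out 1 library, the log2 fold change ran from 0.73 to 0.96. Counts per gene do not separate the CD44 splice forms.

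Epcam itself had a log2 fold change of 0.56 (SE 0.22, 95% interval -0.02 to 1.13; edgeR adjusted p = 0.312). Most of its spread lay between the Sox9-derived libraries. Without Sox9-derived replicate 1 the value was 0.81 (edgeR adjusted p = 0.0463), and without replicate 2 it was 0.27. Prom1 (ENSMUSG00000029086, chromosome 5, 43993620 to 44102032), a cholesterol-binding membrane protein of cell protrusions, varied least within the groups. It stood at 760 and 754 CPM in Ck19-derived libraries, against 723 and 681 CPM in Sox9-derived libraries. The groups did not overlap, yet the log2 fold change was only -0.11 (SE 0.15, 95% interval -0.48 to 0.27; edgeR adjusted p = 0.773). The predicted gene Gm16401 covers 5.91% of the exon bases of Prom1.

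Itga6 and Kit overlapped between the groups. Itga6 (ENSMUSG00000027111, chromosome 2, 71745616 to 71858416), whose protein pairs with integrin beta 1 or beta 4, stood at 45.3 and 37.0 CPM in Ck19-derived libraries, against 30.4 and 49.6 CPM in Sox9-derived libraries. Its log2 fold change was -0.04 (SE 0.32, 95% interval -0.85 to 0.78; edgeR adjusted p = 0.969), and its sign turned when Ck19-derived replicate 1 or Sox9-derived replicate 1 was left out. Kit (ENSMUSG00000005672, chromosome 5, 75574916 to 75656722), the receptor of stem cell factor, stood at 5.49 and 1.74 CPM and at 2.27 and 6.12 CPM. Each group thus held a high and a low library, and the log2 fold change was 0.21 (SE 0.81, 95% interval -1.88 to 2.31; edgeR adjusted p = 0.925). An interval this wide leaves differences of severalfold either way undetectable at this depth and spread.

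Ncam1 (ENSMUSG00000039542, chromosome 9, 49502136 to 49798925), an immunoglobulin-family adhesion molecule, rested on a single library. It had 304 and 129 fragments in the Ck19-derived libraries (9.53 and 3.94 CPM), 1302 in Sox9-derived replicate 1 (35.6 CPM) and 203 in Sox9-derived replicate 2 (6.12 CPM). Only the first Sox9-derived library was high, and the second lay within the Ck19-derived range. The predicted gene Gm11149 covers 4.81% of the exon bases of Ncam1. The log2 fold change was 1.62 (SE 0.92; edgeR adjusted p = 0.453). Without Sox9-derived replicate 2 edgeR called the gene (2.39, adjusted p = 0.0174) among 5.35% of its genes, and without replicate 1 the value was -0.12. The neural and Schwann marker list summed to 3.26 and 2.05 CPM in the Ck19-derived and to 18.4 and 30.0 CPM in Sox9-derived libraries, and was higher in the second Sox9-derived library, where Ncam1 was the lower. Most of that sum was S100b (2.02 ± 0.738 CPM in Ck19-derived organoids, against 22.5 ± 6.99 CPM in Sox9-derived organoids; edgeR adjusted p = 0.0712). Their part in the Ncam1 values was not tested.

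Thy1 and Cd34 were at the edge of detection in the organoids and failed the count filter. Thy1 (ENSMUSG00000032011, chromosome 9, 44043384 to 44048579) had 18 fragments in Ck19-derived replicate 1, 1 in replicate 2, 0 in Sox9-derived replicate 1 and 1 in replicate 2. The floor of 3 fragments in Sox9-derived replicate 1 corresponds to 0.0820 CPM. Nearly all of the 19 Ck19-derived fragments came from 1 library, so the ratio of 20.5 between group totals (Ck19-derived over Sox9-derived, exact binomial 95% interval 3.26 to 852) says little about the groups. Cd34 (ENSMUSG00000016494, chromosome 1, 194938819 to 194961279) had 6 and 1 fragments in the Ck19-derived and 1 and 3 in the Sox9-derived libraries, a Sox9-derived over Ck19-derived ratio of 0.529 (0.114 to 2.08). These intervals cover counting error only. The gene Gm16897 covers 2.03% of the exon bases of Cd34, and the counting ignored strand. The T cell markers summed to 5.21 to 10.4 CPM over the 4 organoid libraries, of which Lck made up 3.92 to 9.77 CPM, and the endothelial markers to 0.382 to 3.02 CPM. The mesenchymal and stellate markers summed to 32.9 and 16.9 CPM in the Ck19-derived and to 7.79 and 6.15 CPM in the Sox9-derived libraries. Of these sums Reln made up 31.1, 15.6, 6.97 and 5.55 CPM, while Dcn, a fibroblast marker of that list, had 0 fragments in all 4. The part of any of these cells in the Thy1 and Cd34 values was not tested.

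**Figure D3:**
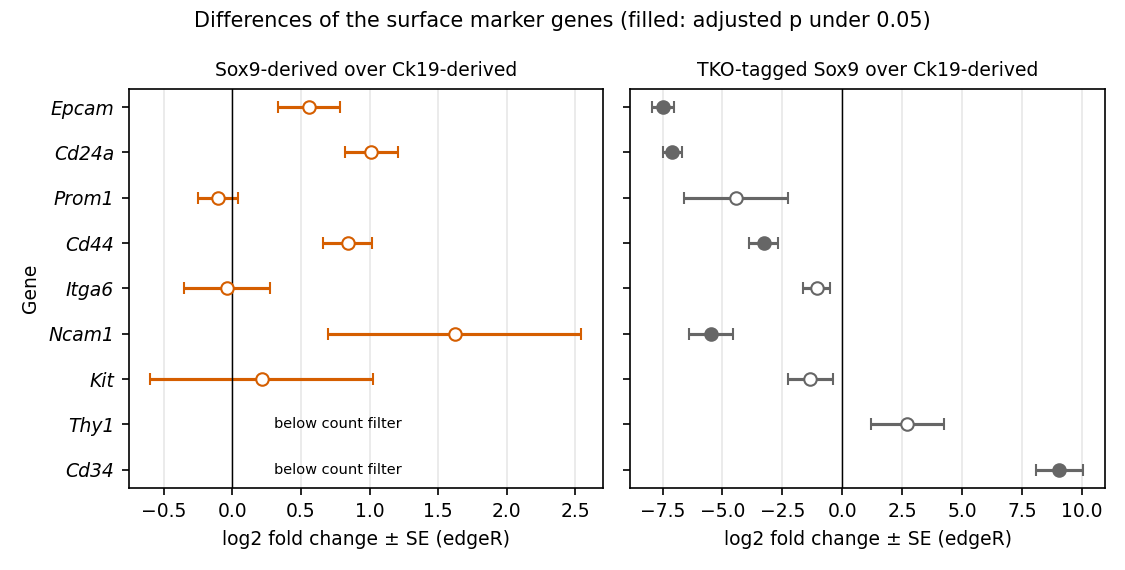
log2 fold change with its standard error (horizontal axis, edgeR) of each surface marker gene, Sox9-derived over Ck19-derived organoids on the left and the TKO-tagged pair over Ck19-derived organoids on the right, on different scales; filled points have an adjusted p under 0.05. No point is filled on the left, and Epcam, Cd24a, Cd44, Ncam1 and Cd34 are filled on the right.

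Read against the same Ck19-derived libraries, the TKO-tagged pair was lower in Epcam, Cd24a, Cd44 and Ncam1 and higher in Cd34. All 9 genes passed the filter of that fit, and edgeR called 5 (4 lower, 1 higher), where 28.9% of all 17938 tested genes were called, 14.0% lower and 15.0% higher. The CPM of the groups did not overlap for 8 of the 9, against 77.9% of all tested genes. The median log2 fold change of the 9 was -3.28, against -0.07 over all tested genes. Scaling to library totals in place of TMM shifted the median of all genes by -0.76 and the share of higher genes among the calls from 51.7% to 27.5%. The direction of all 9 genes held under this and the other 7 alternatives run for this comparison. Because both comparisons use the Ck19-derived libraries, their values are only set side by side.

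Epcam was 178-fold lower in the TKO-tagged pair (log2 fold change -7.48, SE 0.46, edgeR adjusted p = 0.00141). Cd24a, at 1.71 and 2.87 CPM, was 136-fold lower (-7.09, SE 0.40, edgeR adjusted p = 0.00118). Ncam1 had only 4 and 6 fragments (-5.48, SE 0.90, edgeR adjusted p = 0.0149). All 3 genes were readily counted in each organoid library. Cd44, at 23.9 and 7.84 CPM, was 9.70-fold lower (-3.28, SE 0.61, edgeR adjusted p = 0.0196). Without either Ck19-derived library Cd44 and Ncam1 were no longer called (edgeR adjusted p = 0.117 and 0.108 for Cd44, 0.156 and 0.0744 for Ncam1, leaving out replicate 1 and 2).

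Prom1 divided the TKO-tagged pair itself. Column 1 held 3 fragments (0.0563 CPM) and column 2 held 2507 (42.0 CPM). Both lay below every organoid library, but the spread between them left the difference uncalled (log2 fold change -4.45, SE 2.17, edgeR adjusted p = 0.193). With column 2 alone the value was -3.42 and with column 1 alone -12.81, and edgeR called both (adjusted p = 0.000142 and 1.32e-05), in fits that called 35.0% and 36.2% of all genes. Itga6, at 16.9 and 5.97 CPM, had a log2 fold change of -1.07 (SE 0.57, edgeR adjusted p = 0.226). It was called when column 1 was left out (-2.04, edgeR adjusted p = 0.00444) and with library totals (-1.85, edgeR adjusted p = 0.0494), where 39.7% of all genes were called. Kit, at 0.469 and 1.26 CPM, was not called (-1.33, SE 0.93, edgeR adjusted p = 0.342).

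Cd34, a sialomucin of endothelium and haematopoietic progenitors, was the only gene of the list that was called higher in the TKO-tagged pair. It had 2677 and 1207 fragments there (50.2 and 20.2 CPM), against totals of 7 in Ck19-derived and 4 in Sox9-derived organoids. The edgeR log2 fold change against the Ck19-derived organoids was 9.06 (SE 0.99, adjusted p = 0.00529), a fitted value that depends on the few Ck19-derived fragments. Scaled to library totals without TMM factors, the ratio of summed fragments was 318 (exact binomial 95% interval 154 to 790, counting error only). All 8 endothelial markers were detected in both columns, with summed levels of 129 and 75.1 CPM. Of the 8, 7 were called higher, where 15.0% of all tested genes were. Column 1 was the higher for Cd34 and for all of these markers except Kdr (12.7 and 14.7 CPM) and Lyve1 (9.70 and 9.84 CPM). Those of highest level were Pecam1 at 40.1 and 18.2 CPM and Emcn at 33.2 and 15.2 CPM. The part of endothelial cells in the Cd34 value was not tested. The list of mast cell and haematopoietic progenitor markers summed to 2.10 and 3.25 CPM, against 0.0546 to 0.345 CPM in the organoids. None of its genes passed the count filter. The mesenchymal and stellate markers summed to 356 and 184 CPM in the TKO-tagged pair. The part of these cells in the Cd34 value was not tested either.

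Thy1 had 102 and 24 fragments in the TKO-tagged pair (1.91 and 0.402 CPM). The first column lay above and the second within the Ck19-derived range, and edgeR did not call the difference (log2 fold change 2.71, SE 1.52, adjusted p = 0.245). The T cell markers summed to 33.5 and 11.3 CPM and the mesenchymal and stellate markers to 356 and 184 CPM in these columns, again higher in column 1. Their part in the Thy1 value was not tested. In bulk RNA, fewer cells of a type and less RNA per cell cannot be told apart for any of these genes.

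Partners of the surface proteins were read from lists of their known ligands, partners and enzymes. Of 14 partners and proteases of EpCAM, all were tested between the organoid groups and none was called (median log2 fold change -0.02). Spint2, a protease inhibitor of epithelia, stood at 1643 ± 158 CPM in Ck19-derived organoids, against 1459 ± 130 CPM in Sox9-derived organoids, and the tetraspanin Tspan8 at 1291 ± 52.7 and 775 ± 105 CPM (edgeR adjusted p = 0.665 and 0.145). Against the Ck19-derived organoids, the TKO-tagged pair had 8 of these 14 genes called lower and 1 higher (median -2.10). Of all genes tested in that fit, 14.0% were called lower and 15.0% higher.

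On the list of Thy1 binding partners and kinases, 8 of 11 genes were tested between the organoid groups and none was called (median 0.35). Sdc4, a heparan sulfate proteoglycan, stood at 172 ± 22.2 and 273 ± 18.6 CPM, and Itgb5, an integrin subunit, at 32.7 ± 16.7 and 106 ± 27.3 CPM (edgeR adjusted p = 0.186 and 0.164). In the TKO-tagged pair 5 of 11 were called higher and 0 lower, where 15.0% and 14.0% of all tested genes were. Of the partners and laminin ligands of integrin alpha 6, 12 of 13 were tested and none was called (median -0.27). Itgb1, the common beta subunit, stood at 332 ± 57.8 and 366 ± 38.0 CPM, and the laminin chain gene Lamb3 at 111 ± 41.1 and 178 ± 13.8 CPM (edgeR adjusted p = 0.787 and 0.344).

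The list of CD44 ligands, hyaluronan enzymes and splicing factors held the one called gene among the partner lists. Of 13 genes 9 were tested, 1 rose and 8 were not called (median 0.02). Spp1, or osteopontin, a secreted ligand of CD44 and integrins, stood at 7434 and 7744 CPM in Ck19-derived libraries, against 22830 and 18279 CPM in Sox9-derived libraries. The groups did not overlap, and the gene rose with a log2 fold change of 1.44 (SE 0.15, edgeR adjusted p = 0.0467). The call was lost without Ck19-derived replicate 1 (edgeR adjusted p = 0.467) or replicate 2 (0.446) and with the replicate block (0.0983), at log2 fold changes of 1.42, 1.43 and 1.43. Ezr, which links CD44 to actin, stood at 1051 ± 209 and 756 ± 95.4 CPM (edgeR adjusted p = 0.351).

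The remaining lists held no called partner between the organoid groups. Of Kit signalling genes 9 of 10 were tested (median 0.35), with Shc1, an adaptor protein gene, at 125 ± 0.0397 and 118 ± 7.08 CPM. The ligand gene Kitl stood at 64.9 ± 4.53 and 89.5 ± 14.7 CPM (edgeR adjusted p = 0.338). Of the NCAM1 polysialylation and partner genes 4 of 8 were tested (median 0.32). Sptbn1 stood at 71.1 ± 8.57 and 72.3 ± 1.35 CPM and the kinase gene Fyn at 11.6 ± 3.87 and 4.01 ± 3.88 CPM. The prominin and CD34 family list had 3 of 7 tested (median -0.83), with the CD34 relative Podxl at 10.6 ± 4.92 and 15.1 ± 1.14 CPM and Podxl2 at 2.50 ± 0.551 and 1.41 ± 1.06 CPM. Of 15 other liver progenitor surface genes 13 were tested (median -0.14), with Cdh1, the epithelial cadherin, at 369 ± 66.7 and 439 ± 95.8 CPM.

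Biliary markers outside the 9 genes were 2 higher, 0 lower and 7 not called of 9 tested (median 0.47). The called genes were Spp1 and Sox9, the latter at 87.7 ± 13.1 CPM in Ck19-derived organoids, against 565 ± 3.43 CPM in Sox9-derived organoids (log2 fold change 2.69, SE 0.20, edgeR adjusted p = 0.0386). In the same 3 fits the Sox9 call was lost as well (edgeR adjusted p = 0.418, 0.401 and 0.0983), at log2 fold changes of 2.86, 2.51 and 2.70. In the TKO-tagged pair Sox9 stood at 63.8 and 106 CPM, below and above the Ck19-derived values of 97.0 and 78.4 CPM.

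The genes whose pattern over the 4 organoid libraries was most like that of Epcam were found by the root mean square distance of log2(CPM + 1), each gene centred on its mean, among 9496 tested genes of at least 10 CPM. The nearest were Tagap1 (distance 0.026), Exo5 (0.033) and Iah1 (0.034). Iah1 ran at 35.2 and 30.1 CPM in Ck19-derived libraries, against 39.9 and 59.4 CPM in Sox9-derived libraries, which put the libraries in the same order as Epcam did. With 4 libraries, a close match among so many genes is a description only.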

How the data were processed

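The deposited tables hold raw counts per gene, not normalized. Per the file headers, the authors used featureCounts v1.5.0-p3 with gene models of Ensembl release 87 (GRCm38) and kept fragments with both ends mapped, primary alignments, a mapping quality of at least 10 and no use of strand. Duplicates were to be skipped, yet 0 were flagged in the summaries, so PCR copies were counted. Per the submitters' processing notes the tools include STAR 2.5.4b. Fragments that overlap more than 1 gene or map to more than 1 place were dropped. Intervals from counts and the value of 1 fragment cover counting error only.

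Only names tied columns to samples. Columns called Ck19 or Sox9 plus a number (4 libraries) were taken as the organoid samples. A pair named Sox9 with a TKO tag was used as an alternative. Another 4 count columns fitted no label and were left out. The Epcam and Thy1 fractions (3 groups, 6 samples) had no column tied to them, and their planned comparisons were not analysed here.

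CPM were scaled to library totals, and RPKM to exon bases as well. Symbols came from a GENCODE table, which matched 49326 of 49585 gene IDs; Tf matched none. The test was edgeR 4.0.16's quasi-likelihood test in R 4.3.3 (filterByExpr, minimum count 10; TMM factors from 0.992 to 1.01; 2 residual degrees of freedom; common biological coefficient of variation 0.434), with Benjamini-Hochberg adjustment over all tested genes, two-sided, and a threshold of 0.05. A log2 fold change divided by the square root of F gave its standard error. The 95% interval uses the sum of the 2 residual and the 2.94 prior degrees of freedom. The test was tried on simulated data, but the outcome is not given here and no result rests on it. Alternatives were other scalings, DESeq2 1.42.0, limma-voom (limma 3.58.1), fits without 1 library, the replicate block and the TKO-tagged pair. Another was a filter of 1 count, which kept each gene with at least 1 count summed over the libraries. The alternatives for the TKO-tagged comparison were chosen after seeing the data.

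Replicate numbers are shared by the groups, but the labels give them no meaning. Across 13864 genes the differences of replicate 1 from replicate 2 in the organoid groups correlated at 0.0862, over only 1 pair of groups. The members and gene lists were chosen with earlier results of these data known. Named genes were the 9 members, up to 3 called genes and the 2 of highest mean CPM from each of 16 lists, and the 3 tested genes nearest to Epcam. Promoter sequences are from RefSeq (GRCm38.p6).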

Additional observations from a re-analysis of the deposited data

How the results depend on the processing

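The number of genes called between the organoid groups depended on the settings, and with all 4 libraries edgeR called 1 surface marker gene under 1 alternative, Cd24a with a filter of 1 count (adjusted p = 0.0463). Against 95 calls, a filter of 1 count gave 506, DESeq2 1512 and the TKO-tagged pair in place of the untagged Sox9 pair 5190. Without 1 library the count ran from 0 (leaving out either Ck19-derived library, with 1692 and 1611 genes at an unadjusted p under 0.05) to 1394. The replicate block called 0 genes, with 2665 at an unadjusted p under 0.05, and the shared number is not known to pair the samples. Where 1 library is left in a group, it is assumed to vary like the other pair. The count for the TKO-tagged pair against the Ck19-derived organoids ran from 881 to 6976 without 1 library. Over the 10 alternatives that kept the untagged columns, 58 of 70 values for the 7 tested surface marker genes kept their direction and side of the threshold, 7 passed it and 5 turned sign. Leaving out 1 library, Itga6 ran from -0.44 to 0.29, Ncam1 from -0.12 to 2.41 and Kit from -0.68 to 1.28 on the log2 scale. With the TKO-tagged pair the sign turned for Epcam (-7.48), Cd24a (-7.09), Cd44 (-3.28), Ncam1 (-5.48) and Kit (-1.33). The cause of these shifts was not tested. Depth limits Thy1 and Cd34 in the organoids, where 1 fragment is a sizeable part of the value. TPM in place of RPKM left the order of all 9 genes as it was in both organoid groups.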
